A study of Mus musculus with 8 samples.

Results

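The genes examined here encode the insulin-like growth factor (IGF) ligands Igf1 and Igf2, the clearance receptor Igf2r and the 6 IGF-binding proteins Igfbp2 to Igfbp7. They were taken by symbol from the probe annotation and make up 9 of the 18194 genes measured. Each gene was read from the single-symbol probe set that was brightest on average over the 8 arrays. The members had 23 such probe sets in all, and those not used served as a check. Expression was measured on Affymetrix whole-genome mouse arrays in adipocytes grown from 3T3-L1, a line of mouse fibroblasts that can be turned into fat cells. The cells had been made insulin resistant by chronic insulin (CI, 2 arrays), by the inflammatory cytokine tumour necrosis factor (TNF, 3 arrays) or by dexamethasone, a synthetic glucocorticoid (Dex, 3 arrays). In the last 6 hours of treatment every sample, of all 3 models, was also given MnTBAP, a manganese porphyrin used as an antioxidant that enters cells. The paper cites earlier work by its authors, where MnTBAP let insulin again bring a glucose transporter to the cell surface in these models. The arrays are therefore not read here as profiles of cells that were still insulin resistant. The paper also reports that the antioxidant reversed very few of the expression changes of these models, which was not tested here. The doses and durations of the 3 models are not given in the sources used here. Samples without the antioxidant and untreated cells were not analysed here, so each value compares 1 model with another under the antioxidant. A lower value in TNF or Dex than in CI can equally be a higher one under chronic insulin, and the distance of each model from untreated cells was not tested. Whether the arrays of a model stand for separate cultures is not given in the labels. The p-values therefore reflect the spread among these samples alone, and that spread may be technical.

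IGF1 and IGF2 are small secreted hormones related to insulin, and both signal through the IGF1 receptor, a tyrosine kinase close in sequence to the insulin receptor. The binding proteins hold the ligands outside the cell, where they lengthen the life of the hormone and control its access to the receptor until proteases cleave them. IGF2R, also the mannose 6-phosphate receptor, takes IGF2 to the lysosome and does not pass on a growth signal. In adipose tissue IGF1 is made locally, under growth hormone, and promotes the differentiation of preadipocytes, whereas in 3T3-L1 cells differentiation is usually started with a mixture that holds insulin at a dose high enough to act on the IGF1 receptor.

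Of the 9 members, Igfbp3 and Igf1 differed most between the models. Igfbp3 was higher in TNF than in CI by 2.46 ± 0.11 (log2 difference ± standard error, SE, of the fit, a 5.52-fold difference) and higher in Dex than in CI by 1.84 ± 0.11 (3.58-fold). Igf1 fell by 1.28 ± 0.07 in Dex against CI, a 2.43-fold difference. Igf2 was lower in TNF than in Dex (-0.62 ± 0.07), a 1.54-fold difference. The other 6 members were called in none of the 3 comparisons. A gene is said to be called, or to rise, fall or change, where its limma p-value adjusted by Benjamini-Hochberg over all 18194 genes was under 0.05 and its log2 difference exceeded 0.5.

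Read against the whole array, 1 of 9 members was called between TNF and CI, where 8.22% of all genes were called. Between Dex and CI it was 2 of 9, with 9% of all genes called, and between TNF and Dex 3 of 9, with 7.3% called. The median difference of the members was 0.07, 0.08 and 0.11 on the log2 scale in these 3 comparisons, in that order, and that of all genes 0.03, 0.02 and 0.01. With no minimum on size, 5, 3 and 4 of 9 members passed on the adjusted p, where 23%, 21.6% and 20.9% of all genes did. The arrays of the models compared did not overlap for 6, 5 and 6 of 9 members, and for 53%, 48% and 35.9% of all genes. With 9 genes these counts describe the members and say nothing of the family as a whole. The comparisons share arrays, so a model that stands apart enters a pair of them.

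**Figure D1:**
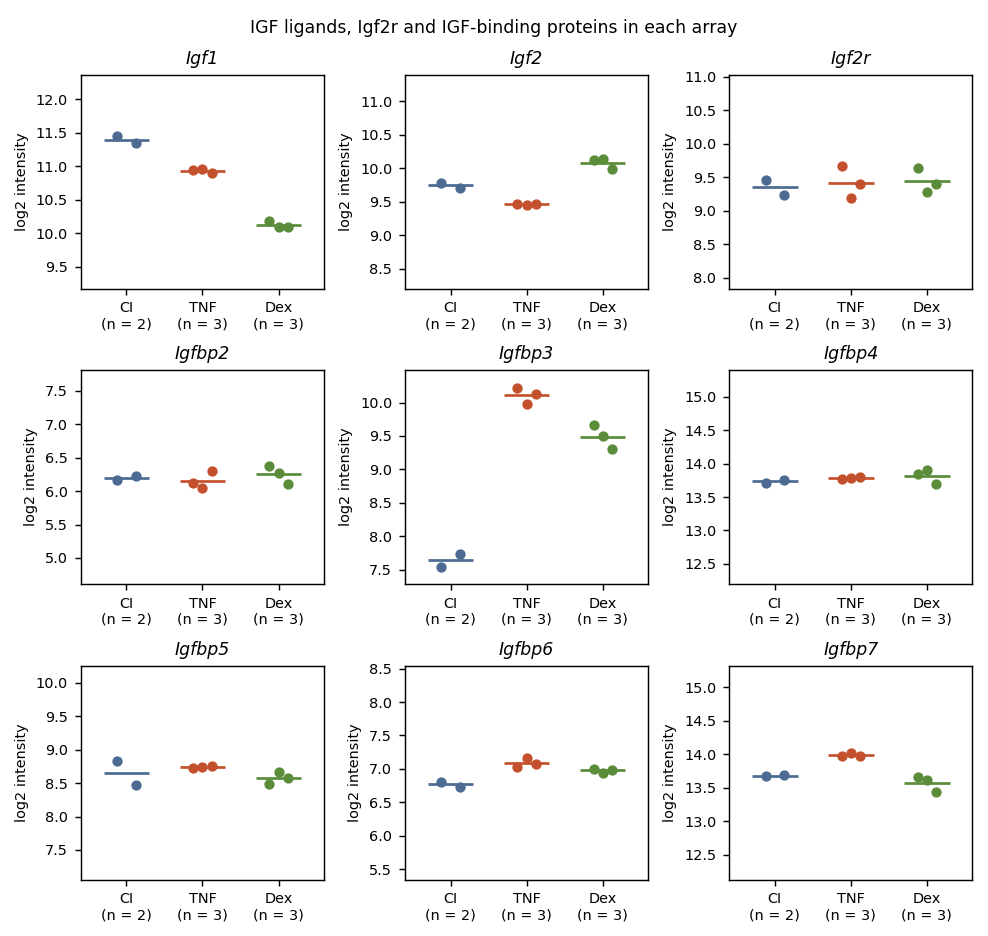
Log2 intensity (vertical axis, which spans the same range in each panel) of the 9 members in every array of CI (n = 2), TNF (n = 3) and Dex (n = 3), with a bar at the mean of each model. The Igfbp3 arrays lie at 7.55 and 7.74 in CI and at 9.30 or above in the other models, and the Igf1 arrays descend from CI to TNF to Dex without overlap.

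The cell identity that the labels give was checked first. The labels name the samples as adipose cells and, in another field, as preadipocytes, and the adipocyte genes Adipoq and Fabp4 had log2 intensities of 14.31 to 14.45 in all 8 arrays, close to the array maxima of 14.45 to 14.57, where differences can be compressed. Across the 7 of 9 adipocyte markers measured, the mean log2 level was 12.61 to 12.74 in CI, 12.15 to 12.23 in TNF and 12.47 to 12.51 in Dex. For 8 of 9 preadipocyte and fibroblast markers it was 11.26 to 11.28, 11.34 to 11.57 and 10.70 to 10.82, for all 9 macrophage and leukocyte markers 7.26 to 7.31, 7.51 to 7.59 and 7.40 to 7.43, and for all 4 endothelial markers 6.16 to 6.26, 6.36 to 6.41 and 6.25 to 6.33. The pan-leukocyte gene Ptprc lay between 4.46 and 4.77 in every array. The glucocorticoid target Fkbp5 lay at 12.99 to 13.14 in the Dex arrays against at most 10.49 elsewhere, and the acute phase gene Saa3 at 13.98 to 14.18 in the TNF arrays against at most 9.14. The median intensity of an array was 124.7 to 130.97, and the beta-actin 3′ minus 5′ difference, a measure of RNA integrity, was 0.66 and 0.54 in CI, at 0.74, 0.71 and 0.83 in TNF, and at 0.49, 0.49 and 0.75 in Dex. These are bulk samples, in which fewer cells of a type and less RNA per cell cannot be told apart.

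Igf1, the ligand that acts through the IGF1 receptor, was at log2 intensities of 11.46 and 11.34 in CI, at 10.95, 10.96 and 10.90 in TNF, and at 10.18, 10.09 and 10.09 in Dex. The order was CI, then TNF, then Dex, and no array of a model reached the range of the next. Dex minus CI was -1.28 ± 0.07 for Igf1 (limma adjusted p = 4.62e-07), with a 95% interval of -1.44 to -1.12 for Dex minus CI. It was also higher in TNF than in Dex by 0.82 ± 0.07, a 1.76-fold difference (limma adjusted p = 6.31e-06). Between TNF and CI the difference of -0.46 ± 0.07 passed on its adjusted p (limma, 0.00106) and not on its size, which lay just under the minimum of 0.5. It exceeded that minimum without CI replicate 2, at -0.52 (limma adjusted p = 0.00658). The preadipocyte and fibroblast markers were also lowest in Dex by mean level (10.70 to 10.82). Unlike Igf1, they were highest in TNF (11.34 to 11.57) and not in CI (11.26 to 11.28). Of the 8 measured, 3 were called lower in Dex than in CI, Col3a1, Col1a1 and Dlk1, and the other 5 were not called. The Dlk1 call was lost with its probe sets averaged (-0.41). The part of these markers in the Igf1 value was not tested.

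Igf1 had 4 single-symbol probe sets, and they gave the same direction for Dex but not the same size for TNF. All 4 were called lower in Dex than in CI (-1.64 to -1.28), and all 4 were called higher in TNF than in Dex, by 0.82 to 1.55. Between TNF and CI the set 1419519_at was called at -0.66 ± 0.11 (limma adjusted p = 0.0017 over all probe sets), whereas 1434413_at and 1437401_at each differed by -0.09, with SEs of 0.16 and 0.19. The arrays of 1434413_at read 10.25 and 9.90 in CI, at 10.11, 9.75 and 10.09 in TNF, and at 8.66, 8.50 and 8.13 in Dex. In that probe set the CI and TNF arrays overlapped, and the Dex arrays lay apart from both. The 95% interval for its TNF minus CI difference ran from -0.45 to 0.27, and that of 1437401_at from -0.52 to 0.34. In the same fit the interval of the set used ran from -0.63 to -0.30. These intervals overlap, and the difference between probe sets was not tested. The low level of Igf1 in Dex was therefore shared by all of its probe sets, whereas the separation of TNF from CI was seen in some of them only.

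The promoter sequences of the 3 members called in any comparison are shown, those of Igf1 and Igfbp3 so that their base composition can be set side by side. They are the 250 bases before the RefSeq transcription start on build GRCm38.p6, written 5′ to 3′ on the strand of the gene. Igf1 (chr10:87860861-87861110, plus strand) holds 5 CG pairs and Igfbp3 (chr11:7213924-7214173, minus strand) holds 32, and the capitals mark these pairs. Of the 4 windows listed for Igf2, the one printed (chr7:142666817-142667066, minus strand) was chosen because it holds AGAACA. These 6 bases are a part of the glucocorticoid response element and not the full element. The capitals mark them as read on the reverse strand, TGTTCT, the reverse complement of AGAACA, which begins 85 bases before the start.
Igf1: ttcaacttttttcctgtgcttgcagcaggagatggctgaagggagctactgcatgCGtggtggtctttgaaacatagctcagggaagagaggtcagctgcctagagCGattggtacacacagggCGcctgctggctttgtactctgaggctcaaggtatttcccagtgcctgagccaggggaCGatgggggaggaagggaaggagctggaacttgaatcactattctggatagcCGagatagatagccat
Igfbp3: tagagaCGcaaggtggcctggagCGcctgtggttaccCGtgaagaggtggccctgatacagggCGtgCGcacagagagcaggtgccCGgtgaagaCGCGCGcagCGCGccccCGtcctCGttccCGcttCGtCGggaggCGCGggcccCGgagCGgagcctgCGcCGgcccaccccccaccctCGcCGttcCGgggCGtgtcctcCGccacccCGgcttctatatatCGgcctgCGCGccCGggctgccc
Igf2: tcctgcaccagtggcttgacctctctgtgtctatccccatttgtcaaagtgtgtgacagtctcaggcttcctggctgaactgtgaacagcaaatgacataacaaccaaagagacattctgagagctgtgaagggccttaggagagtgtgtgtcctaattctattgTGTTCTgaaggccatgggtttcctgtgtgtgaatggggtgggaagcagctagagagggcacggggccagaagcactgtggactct
Counted over the full windows of 300 bases, which add 50 bases after the start, Igf1 had 6 CG pairs against a median of 7 over all 32851 windows. Igfbp3 had 37, and 94.4% of all windows had fewer. The Igf2 windows had 2 (the one printed), 7, 14 and 24. The 9 members matched 13 windows, since Igf2 had 4 and Igfbp2 a pair of them.

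Motifs were searched on both strands of the 13 windows. AGAACA, a part of the glucocorticoid response element and not the full element, was in 1 window of Igf2 and 1 of Igfbp2. It was in 19% of all windows. The FOXO motif GTAAACA (3.65% of all windows), the NF-kB motif (GGGA and TTTCC around 1 free base, 0.411%) and the STAT motif TTCNNNGAA (8.3%) were in 0 of the 13. The AP-1 motif TGANTCA was in the Igf1 window and in 1 of Igfbp2 (7.81% of all windows), and TATAAA in those of Igfbp4 and Igfbp6 (13.6%). A match is only a run of letters in a short window, and a window without one gives no information on the factor. The Igf1 and Igfbp3 windows, the promoters of the members that differed most, held neither AGAACA nor the NF-kB motif.

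Igf2, the fetal growth hormone that is imprinted and also binds IGF2R, was at 9.78 and 9.71 in CI, at 9.46, 9.46 and 9.47 in TNF, and at 10.12, 10.15 and 9.99 in Dex. The order was Dex, then CI, then TNF, with no overlap between models, and the 3 TNF arrays were nearly the same (SD 0.01). Its TNF minus Dex difference was -0.62 ± 0.07 (limma adjusted p = 5.22e-05), a 1.54-fold difference and the one comparison in which it was called. Against CI it differed by -0.28 ± 0.07 in TNF (limma adjusted p = 0.0195) and by 0.34 ± 0.07 in Dex (limma adjusted p = 0.00647), both under the size minimum. Igf2 thus had a different order of models from Igf1, and the difference between the patterns of the 2 ligands was not itself tested. A second Igf2 probe set, 1415931_at, read 5.79 and 5.67 in CI, at 6.06, 5.67 and 5.81 in TNF, and at 5.91, 6.03 and 6.01 in Dex. Its TNF and Dex arrays overlapped, and its TNF minus Dex difference of -0.14 ± 0.10 (limma adjusted p = 0.419) was not called, so the Igf2 call rests on 1 of 2 probe sets. With the probe sets averaged, the difference was -0.38 and was not called. The second set had a mean of 5.87, below the median gene of the array (7.92). Background signal can make differences look smaller there, and so in the average too.

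Igf2r, which carries IGF2 and lysosomal enzymes bearing mannose 6-phosphate to the lysosome, was at 9.46 and 9.24 in CI, at 9.68, 9.20 and 9.39 in TNF, and at 9.64, 9.28 and 9.40 in Dex. In the probe set used, the models overlapped throughout, and the arrays of a model differed from each other by more than the models did. The differences were 0.07 in TNF and 0.09 in Dex against CI, each with an SE of 0.14. Their 95% intervals, -0.24 to 0.38 and -0.22 to 0.40, left out differences as large as the minimum of 0.5. The other Igf2r probe set, 1424111_at, gave 0.21 and 0.26, and neither was called (limma adjusted p = 0.166 and 0.0983 over all probe sets). Its CI arrays, at 9.04 and 9.19, nevertheless lay below every TNF and Dex array, which were at 9.23 or above.

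Igfbp3, the binding protein that carries most of the IGF in blood and that growth hormone raises in the liver, was at 7.55 and 7.74 in CI, at 10.22, 9.97 and 10.13 in TNF, and at 9.66, 9.50 and 9.30 in Dex. CI was the low model, TNF the high one, and no model overlapped another. The increase over CI was 2.46 ± 0.11 in TNF (95% interval 2.21 to 2.71, limma adjusted p = 2.69e-07) and 1.84 ± 0.11 in Dex (1.59 to 2.09, limma adjusted p = 7.72e-07). TNF exceeded Dex by 0.62 ± 0.10, a 1.54-fold difference (limma adjusted p = 0.00111), and by 0.45 with the probe sets averaged, which was not called. Leaving out any 1 array kept the TNF minus CI difference between 2.37 and 2.56 and the Dex minus CI difference between 1.74 and 1.94.

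The other Igfbp3 probe set, 1458268_s_at, read 7.43 and 7.93 in CI, at 9.92, 9.62 and 10.00 in TNF, and at 9.67, 9.81 and 9.21 in Dex. CI again lay apart, whereas the TNF and Dex arrays overlapped. It was called higher than CI in TNF by 2.17 ± 0.19 and in Dex by 1.89 ± 0.19, and its TNF minus Dex difference of 0.29 ± 0.17 was not called (limma adjusted p = 0.321). The rise over CI in both models was thus seen in both probe sets, and the order of TNF and Dex in 1 of them. The leukocyte markers had the same order by mean level (7.26 to 7.31 in CI, 7.40 to 7.43 in Dex and 7.51 to 7.59 in TNF), and their part in the Igfbp3 value was not tested. Of these 9 markers Cd14, a receptor for bacterial lipopolysaccharide, and Lyz2, which encodes lysozyme, were called higher in TNF than in CI. In Dex against CI only Cd14 was called (0.98), and Lyz2 went the other way (-0.40, under the size minimum). The median difference of the 9 markers there was 0.12. Ptprc, which all leukocytes carry, differed from CI by 0.06 in TNF and 0.03 in Dex and was not called.

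**Figure D2:**
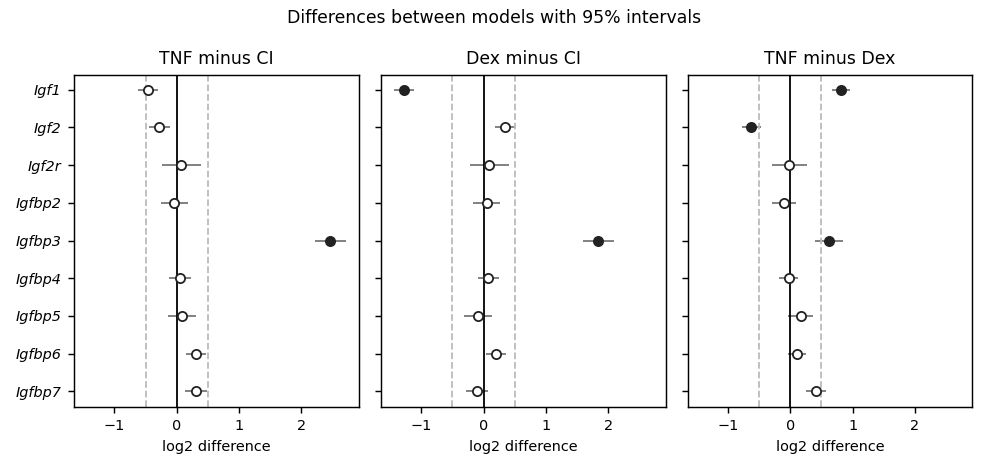
Log2 differences between models (horizontal axis) with 95% intervals for the 9 members, with filled points for called genes and dashed lines at the minimum of 0.5. Igfbp3 is filled in all 3 panels, Igf1 in the panels of Dex minus CI and TNF minus Dex, and Igf2 in that of TNF minus Dex.

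The probe sets used for Igfbp4 and Igfbp7 gave intensities near the top of the array's range, where differences can be compressed. Igfbp4, a binding protein that inhibits IGF action until the protease PAPP-A cleaves it, was at 13.71 and 13.75 in CI, at 13.76, 13.78 and 13.81 in TNF, and at 13.84, 13.90 and 13.70 in Dex. All 8 arrays lay between 13.70 and 13.90, and the Dex arrays spanned those of both other models. The differences of 0.05 ± 0.08 in TNF and 0.08 ± 0.08 in Dex were not called, with 95% intervals of -0.12 to 0.22 and -0.09 to 0.25. None of its 6 probe sets was called in any comparison, and over all 6 the TNF minus CI difference ran from -0.26 to 0.08. The Igfbp4 probe set that differed most, 1421991_a_at, was at 11.44 and 11.33 in CI, at 11.03, 11.18 and 11.17 in TNF, and at 11.52, 11.66 and 11.27 in Dex. There the TNF arrays were the low ones, without overlap, and the TNF minus Dex difference was -0.35 ± 0.10 (limma adjusted p = 0.0335), under the size minimum.

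Igfbp7, a secreted relative that binds IGFs with low affinity, was at 13.67 and 13.69 in CI, at 13.98, 14.01 and 13.98 in TNF, and at 13.66, 13.62 and 13.44 in Dex. The TNF arrays lay above all others. The difference was 0.31 ± 0.08 from CI (limma adjusted p = 0.0176) and 0.42 ± 0.07 from Dex (limma adjusted p = 0.00162), and both fell short of the size minimum. Its other 2 probe sets did not give the same picture. The set 1423585_at, at 7.87 and 7.84 in CI, at 8.46, 8.38 and 8.48 in TNF, and at 8.05, 7.78 and 8.05 in Dex, was called higher in TNF than in CI by 0.58 ± 0.09 (limma adjusted p = 0.0018). The set 1437804_at gave 0.02 ± 0.08 for the same comparison. With the beta-actin 3′ minus 5′ difference as a covariate, the Igfbp7 difference between TNF and Dex was 0.53 and was called (limma adjusted p = 0.00312).

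Igfbp2, Igfbp5 and Igfbp6 differed little between models. Igfbp6, which prefers IGF2 over IGF1, was at 6.81 and 6.73 in CI, at 7.03, 7.16 and 7.07 in TNF, and at 7.00, 6.94 and 6.99 in Dex. CI was the low model for this gene, and the TNF arrays lay just above the Dex arrays. The difference from CI was 0.31 ± 0.07 in TNF (limma adjusted p = 0.00987) and 0.21 ± 0.07 in Dex (limma adjusted p = 0.0666), and neither was called. Igfbp5, which binds to extracellular matrix, was at 8.83 and 8.48 in CI, at 8.72, 8.74 and 8.76 in TNF, and at 8.48, 8.66 and 8.58 in Dex. The CI arrays spanned those of both other models, and the differences from CI were 0.08 in TNF and -0.08 in Dex, each with an SE of 0.10. The TNF arrays lay above all Dex arrays, by 0.17 ± 0.09 on average, which was not called. A dimmer Igfbp5 probe set, 1452114_s_at, with a mean of 4.47, gave -0.22 in TNF and -0.24 in Dex. Neither was called, and its Dex arrays lay below both CI arrays. Igfbp2, a binding protein that in mice limits fat gain when raised, was at 6.17 and 6.23 in CI, at 6.12, 6.04 and 6.30 in TNF, and at 6.38, 6.27 and 6.11 in Dex. Its models overlapped, and the 95% intervals of the differences from CI, -0.26 to 0.17 in TNF and -0.17 to 0.27 in Dex, left out a difference of 0.5. Igfbp2 and Igfbp6 were read from probe sets below the median gene of the array (7.92), where background signal can make differences look smaller, and no measure of background was used here.

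**Figure D3:**
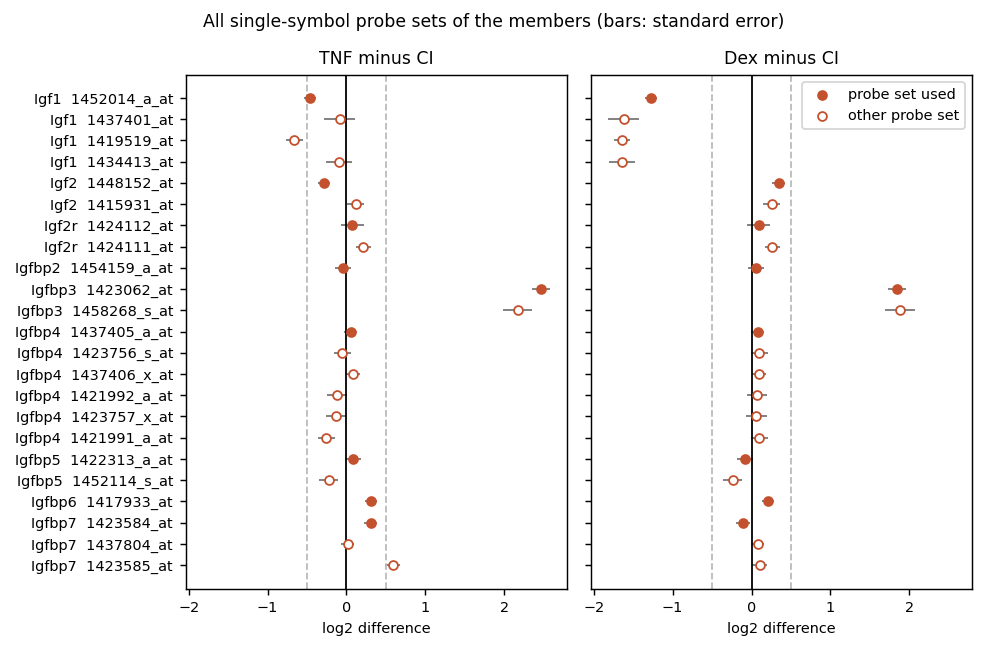
Log2 differences from CI (horizontal axis) with SE bars for each of the 23 probe sets of the members, in TNF and in Dex, with filled points for the probe set used and dashed lines at the minimum of 0.5. Both Igfbp3 sets lie at 1.84 or above in both panels, all 4 Igf1 sets lie at -1.28 or below in Dex, and the Igf1 sets spread from -0.66 to -0.09 in TNF.

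Genes around the ligands were read from 8 lists, of which 61 of 64 genes had a single-symbol probe set. Between TNF and CI 12 were called higher and 4 lower, or 26.2%, and between Dex and CI 9 higher and 11 lower, or 32.8%. Between TNF and Dex 14 were higher and 4 lower, or 29.5%. These shares lay above those of all genes (8.22%, 9% and 7.3%), but the lists were chosen with earlier results of these data known, and nothing particular to the pathway is read from them. The median difference over the 61 genes was 0.12, -0.003 and 0.09.

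The receptor for both ligands, Igf1r, was at 8.82 and 8.76 in CI, at 9.70, 9.55 and 9.70 in TNF, and at 9.69, 9.58 and 9.58 in Dex. TNF and Dex overlapped, and both lay above CI. Igf1r was higher than in CI by 0.86 ± 0.08 in TNF (limma adjusted p = 2.84e-05) and by 0.82 ± 0.08 in Dex (limma adjusted p = 2.08e-05). TNF minus Dex was 0.04 ± 0.07, and with the probe sets of Igf1r averaged the differences from CI, 0.41 and 0.40, fell under the size minimum. Insr, the insulin receptor, was at 9.28 and 9.11 in CI, at 9.50, 9.28 and 9.52 in TNF, and at 9.89, 9.74 and 9.76 in Dex, and was called higher in Dex than in CI by 0.60 ± 0.09. Averaged over its probe sets, the Insr difference was 0.05 and was not called.

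Of the 13 receptor and proximal signalling genes, 1 was called higher and 2 lower in TNF than in CI, 4 higher and 3 lower in Dex than in CI, and 2 higher and 1 lower in TNF than in Dex. Irs1, a docking protein of both receptors, was at 11.84 and 11.83 in CI, at 11.32, 11.28 and 11.63 in TNF, and at 10.56, 10.50 and 10.56 in Dex. Like the Igf1 probe set used, Irs1 descended from CI to TNF to Dex without overlap, and the Irs1 Dex minus CI difference was -1.30 ± 0.10 (limma adjusted p = 4.77e-06). The related Irs2 took another order, at 8.84 and 8.93 in CI, at 8.60, 8.54 and 8.47 in TNF, and at 9.47, 9.48 and 9.56 in Dex. Its level in Dex exceeded that in CI by 0.62 ± 0.07, and TNF minus Dex was -0.97 ± 0.07. Grb14, an adaptor that inhibits the insulin receptor, fell by 2.01 ± 0.21 in Dex against CI and differed by -0.01 ± 0.21 in TNF. With its probe sets averaged the Grb14 fall was -1.07 and was still called. Akt1, a kinase downstream of both receptors, rose by 0.60 ± 0.11 in Dex against CI. The adaptor Grb2 was lower than in CI in both TNF (-0.66 ± 0.11) and Dex (-0.89 ± 0.11), and the phosphoinositide 3-kinase subunit Pik3r1 was lower in TNF (-0.64 ± 0.10). The Grb2 and Akt1 calls against CI were lost when the probe sets of a gene were averaged (-0.34 and -0.35 for Grb2 in TNF and Dex, 0.36 for Akt1 in Dex).

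Among 9 other carriers and related secreted proteins, 1 was higher in TNF than in CI, and 2 were higher and 2 lower in Dex than in CI. Between TNF and Dex 1 was higher and 1 lower. Igfals, the acid-labile subunit that joins IGFBP3 and the ligand in the large complex of blood, was at 9.19 and 9.18 in CI, at 9.61, 9.55 and 9.41 in TNF, and at 8.68, 8.54 and 8.60 in Dex. TNF was the high model and Dex the low one, with no overlap, and the TNF minus Dex difference was 0.91 ± 0.07 (limma adjusted p = 6.16e-06). Igfbp1, made mainly in liver, lay between 5.66 and 5.85 in all 8 arrays. Htra3, a secreted serine protease with an IGF-binding-protein-like domain, was higher than in CI in both TNF (0.66 ± 0.09) and Dex (0.84 ± 0.09). Kazald1, an IGFBP-related secreted protein, rose by 0.77 ± 0.11 in Dex against CI and was lower in TNF than in Dex (-0.86 ± 0.10). Htra4, a protease of the Htra3 family, was lower in Dex than in CI (-0.55 ± 0.12), and was no longer called without CI replicate 2 (-0.38) or Dex replicate 2 (-0.47). Its arrays all lay between 4.37 and 5.26, and with a pseudocount of 32 the difference was -0.26 and was not called.

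Proteases that cleave binding proteins, and their inhibitors, had 13 of 14 genes measured. In TNF against CI 4 were called higher and 1 lower, in Dex against CI 1 higher and 3 lower, and in TNF against Dex 5 higher and 0 lower. Timp1, an inhibitor of matrix metalloproteinases, was at 8.92 and 9.04 in CI, at 10.55, 10.38 and 10.32 in TNF, and at 8.40, 8.23 and 8.43 in Dex. It was higher in TNF than in Dex by 2.06 ± 0.08 (limma adjusted p = 2.21e-08), with CI between them. Plat, tissue plasminogen activator, had the same order, at 7.84 and 7.74 in CI, at 8.72, 8.46 and 8.61 in TNF, and at 6.96, 6.73 and 7.00 in Dex, and was higher in TNF than in Dex by 1.70 ± 0.09, and by 0.92 with its probe sets averaged, which was still called. The gelatinase Mmp2 was higher than in CI in both TNF (0.88 ± 0.08) and Dex (0.78 ± 0.08), and Mmp14, the membrane protease that activates it, was higher in TNF than in CI by 0.88 ± 0.08. Adam12, which in humans cleaves IGFBP3 and IGFBP5, was lower than in CI in both TNF (-0.98 ± 0.11) and Dex (-0.64 ± 0.11). Stc1, a stanniocalcin that inhibits PAPP-A, was higher in TNF than in Dex by 0.63 ± 0.10, and by 0.43 with its probe sets averaged, which was not called. Adamts1, a secreted metalloproteinase, was called in the same comparison at 0.59 ± 0.16, and not without TNF replicate 1 (0.41), TNF replicate 3 (0.58), Dex replicate 2 (0.63) or Dex replicate 3 (0.45), nor with array weights (0.48), an intensity trend in eBayes (0.59) or the beta-actin covariate (0.72). Pappa, the main protease of IGFBP4, was at 7.94 and 7.59 in CI, at 7.66, 7.67 and 7.82 in TNF, and at 7.92, 7.80 and 8.05 in Dex, which overlapped. Of the 8 preadipocyte and fibroblast markers measured, 5 were called higher in TNF than in Dex, 0 lower, and 3 were not called. The largest of these differences was that of Pdgfrb, with 11.32 to 11.46 in TNF and 9.84 to 10.40 in Dex. Between TNF and CI only Pdgfrb was called, and the other 7 were not. The part of these markers in the Timp1 and Plat values was not tested.

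**Figure D4:**
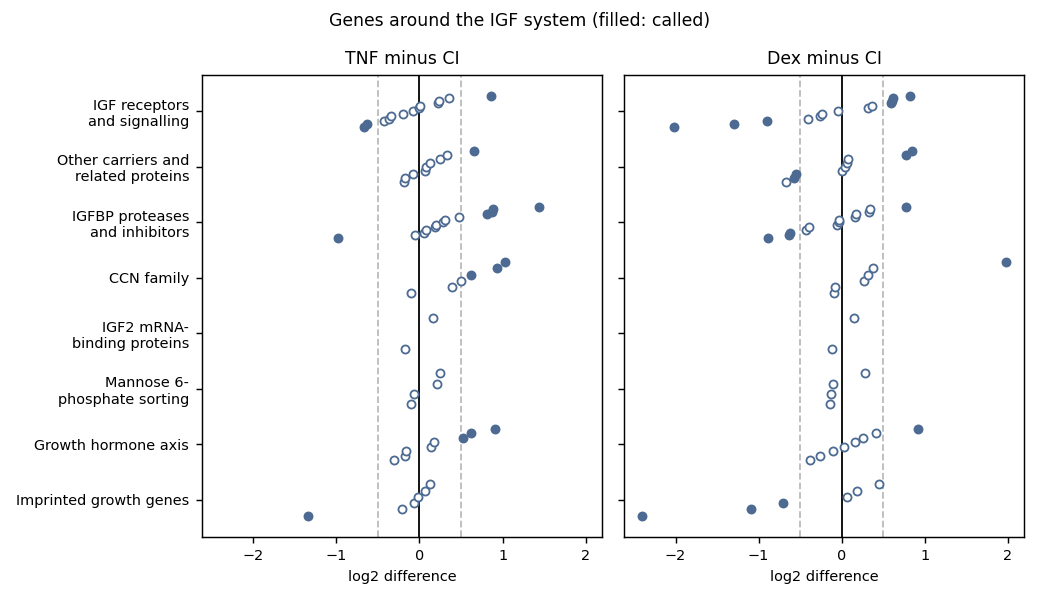
Log2 differences from CI (horizontal axis) of the 61 genes around the IGF system, by list, in TNF and in Dex, with filled points for called genes and dashed lines at the minimum of 0.5. In TNF the called genes run from -1.34 to 1.43 and in Dex from -2.40 to 1.98, and the lists of IGF2 mRNA-binding proteins and of mannose 6-phosphate sorting hold no filled point.

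All 6 matricellular CCN genes, whose proteins share a domain with the IGF-binding proteins, were measured. In TNF against CI Ccn5 (1.03 ± 0.13), Ccn4 (0.94 ± 0.17) and Ccn2 (0.62 ± 0.14) were called higher, and in Dex against CI Ccn1 (1.98 ± 0.23). Ccn1 was at 8.03 and 7.35 in CI, at 8.57, 7.93 and 8.09 in TNF, and at 9.35, 9.98 and 9.68 in Dex. The Dex arrays lay above all others, and the CI arrays were far from each other (SD 0.48). With its probe sets averaged, Ccn1 differed by 1.17 between Dex and CI and was still called. The Ccn2 call was lost without CI replicate 2 (0.52), with a pseudocount of 32 (0.42) and with the beta-actin 3′ minus 5′ difference, which was higher in TNF than in CI, as a covariate (0.37, limma adjusted p = 0.0699).

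Upstream of Igf1, all 8 genes of the growth hormone axis were measured. Ghr, the growth hormone receptor, was at 13.50 and 13.36 in CI, at 13.40, 13.12 and 13.24 in TNF, and at 13.18, 13.18 and 12.77 in Dex, with differences from CI of -0.17 ± 0.13 and -0.39 ± 0.13 that were not called. Its order, CI then TNF then Dex by mean, was that of Igf1, with overlap between TNF and each other model. Jak2, the kinase bound to the receptor, was higher in TNF than in CI by 0.90 ± 0.14. Socs2, a feedback inhibitor of the receptor, was higher than in CI in TNF (0.62 ± 0.16) and in Dex (0.92 ± 0.16), and the TNF call was lost without CI replicate 1 (0.67), CI replicate 2 (0.57), TNF replicate 1 (0.47) or TNF replicate 3 (0.59). Averaged over its probe sets, Socs2 was called in neither model (0.32 and 0.49). Cish, another such inhibitor, was called in TNF against CI at 0.52 ± 0.13, and not without CI replicate 2 (0.43), without TNF replicate 3 (0.45), with the arrays centred on their medians (0.48), with a pseudocount of 32 (0.49) or with the beta-actin 3′ minus 5′ difference as a covariate (0.31). The receptor's transcription factors Stat5a and Stat5b differed from CI by -0.30 and 0.17 in TNF and by -0.10 and 0.25 in Dex, and neither was called.

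Igf2 is imprinted, and 6 of 7 other imprinted growth genes were measured. Plagl1, a zinc finger factor that in mice activates the Igf2 locus, was at 9.66 and 9.43 in CI, at 8.32, 8.14 and 8.14 in TNF, and at 7.15, 7.32 and 6.96 in Dex. It fell in the order CI, TNF, Dex with no overlap, with differences from CI of -1.34 ± 0.11 in TNF and -2.40 ± 0.11 in Dex, whereas Igf2 was highest in Dex. Averaged over its probe sets, Plagl1 differed from CI by -0.56 in TNF and -0.93 in Dex, both still called, and its TNF minus Dex call was lost (0.37). Mest, a hydrolase-like protein linked to fat cell size, was lower in Dex than in CI (-1.09 ± 0.08) and differed by -0.07 ± 0.08 in TNF. Dlk1, the inhibitor of adipogenesis also known as Pref-1, was lower in Dex than in CI (-0.70 ± 0.10), and averaged over its probe sets the difference was -0.41 and was not called. Between TNF and Dex 3 of the 6 were called higher in TNF, Plagl1 (1.06), Mest (1.02) and Dlk1 (0.83), the opposite direction to Igf2. The Dlk1 difference was 0.34 with its probe sets averaged and was not called. Peg3, a zinc finger protein, was the 1 called lower in TNF than in Dex (-0.66 ± 0.09), the direction of Igf2.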

How the data were processed

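Biotin-labelled cRNA from 8 samples of 3T3-L1 adipocytes was hybridised to mouse arrays of 45101 probe sets. The deposited values were probe set intensity values made by the authors, on a linear scale from 6.14 to 24273.6. The methods of the study state that arrays of this type were background corrected and normalized by RMA (affyPLM package), and whether the deposited intensities had any further scaling is not given in the sources used here. Log2 was taken with no pseudocount. No 2 arrays held identical values.

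Probe sets were named from the platform annotation of GEO, with 34958 of 1 gene symbol, 932 of several and 9211 of none. Several or no symbols named no gene. All 9 members matched an entry of the RefSeq gene table by gene ID. The 3 groups, taken from the sample titles, were fitted together with limma 3.58.1 in R 4.3.3 (lmFit and eBayes, two-sided, p-values adjusted by Benjamini-Hochberg across 18194 genes), after the methods of the study. The other probe sets were tested in a fit of 45037, without the 64 control probe sets. The fit was tested on simulated data. The number of arrays limits the precision, and an array has no read depth.

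The members and lists were chosen with earlier results of these data known. All members were named whatever their values, as were Igf1r, Insr, Igfbp1, Igfals, Ghr and Pappa, and up to 4 called genes per list and comparison, the largest first. Other listed genes were named for the value they hold beside a member or as a count. The genes most like a member were the 3 with the highest Pearson's r over the 8 arrays, among genes whose model means span at least 1.

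Promoter windows came from RefSeq on GRCm38.p6 and were searched with Python 3.11.15. As alternatives, arrays were quantile normalized or centred on their medians, 32 was added before log2, genes below the median gene were dropped, probe sets were averaged per gene or tested singly, replicate numbers were blocked, and each pair of groups was fitted alone. Array weights, an intensity trend with robust eBayes, looser and stricter thresholds and leaving out each array were also tried. Adjustment for the 3′ to 5′ signal of beta-actin was chosen after seeing the data. Listed genes with no single-symbol probe set here, Igf2bp2 and H19 among them, were not analysed.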

Additional observations from a re-analysis of the deposited data

How the results depend on the processing

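No member changed sign in a called comparison under any alternative. Of 561 values of members under alternatives, 547 stayed on the same side of the threshold, 5 no longer passed it and 9 newly passed it. The Igf1 difference between TNF and CI newly passed with median centring (-0.51), which made 2 members called there, and ran from -0.52 to -0.41 with 1 array left out. Members called in that comparison then numbered 1 to 2. The value without CI replicate 2 was the one that passed. With the probe sets of a gene averaged, Igf2 (-0.38) and Igfbp3 (0.45, limma adjusted p = 0.0311) between TNF and Dex lost their calls, which left 1 member called. With no minimum on size, 5 members were called between TNF and CI (Igf1 -0.46, Igf2 -0.28, Igfbp6 0.31 and Igfbp7 0.31 newly), Igf2 (0.34) was added between Dex and CI and Igfbp7 (0.42) between TNF and Dex. Calls over all genes were then 4181, 3926 and 3801, and over the pathway lists 27 between TNF and CI and 31 between Dex and CI. At an adjusted p under 0.01 and a difference over 1, calls over all genes were 250, 417 and 340, calls over the lists 3, 5 and 6, and 0 members were called between TNF and Dex (Igf1 0.82, Igf2 -0.62 and Igfbp3 0.62). Every probe set as a feature gave 2992, 3305 and 2583 calls, from more features tested. The beta-actin covariate called Igfbp7 between TNF and Dex (0.53). The share of calls that were higher in TNF than in CI was 36.4% over all genes, 46.7% after quantile normalization and 27.3% after median centring. Of 6276 such values of the other genes named or listed, 6087 stayed on the same side, 118 no longer passed, 71 newly passed and 0 called values changed sign. The filter on low genes removed Igfbp2 and Igfbp6. The cause of these changes was otherwise not tested.

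Whether the replicate numbers of the labels pair the arrays was not settled. Of 7 same-numbered pairs 2 had correlated deviations over 0.1 (range -0.09 to 0.33), and 3 of 8 arrays correlated best with their own number. The deviations were taken from the model mean, so the 2 CI arrays mirror each other and cannot show a pairing. Between TNF and Dex the same-numbered pairs had correlations of 0.33, -0.09 and 0.21. The replicate block gave 1534, 1730 and 1339 calls over all genes and changed no call of a member. Of the other genes named in the text, Cish lost its call between TNF and CI (0.43) and Pdgfrb gained one between Dex and CI (-0.53).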

Other observations

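The genes whose pattern over the 8 arrays was most like that of Igfbp3 were Tmem176a, Tspan4 and Rprd2, with Pearson's r of 0.994, 0.987 and 0.986 among 668 genes whose model means spanned at least 1 on the log2 scale. Tmem176a, a membrane protein gene, was at 10.74 and 10.70 in CI, at 12.97, 12.85 and 12.89 in TNF, and at 12.29, 12.26 and 12.17 in Dex. For Igf1 they were Lgals9, Car3 and Lum, at 0.997, 0.994 and 0.993. Car3, a carbonic anhydrase abundant in fat, was at 13.05 and 12.79 in CI, at 11.61, 11.31 and 11.35 in TNF, and at 9.48, 8.74 and 9.20 in Dex. Lum, the matrix proteoglycan lumican, was at 10.55 and 10.21 in CI, at 9.46, 9.70 and 9.64 in TNF, and at 7.68, 7.42 and 7.49 in Dex. For Igf2 they were Glud1, Mpp1 and Errfi1, at 0.993, 0.987 and 0.980 among 669 genes. Glud1, mitochondrial glutamate dehydrogenase, was at 12.02 and 11.89 in CI, at 11.48, 11.54 and 11.48 in TNF, and at 12.63, 12.53 and 12.46 in Dex. The points of each correlation are 8 arrays in 3 models, so that genes with the same order of models score high, and the values are a description only.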
